A study of Homo sapiens with 6 samples.

Results

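In 3 human bladder cancer cell lines, 116 expressed genes had at least a doubled RNA level after 2 days with quisinostat, a second-generation inhibitor of many histone deacetylases (HDACs). The genes were chosen by the measured values themselves. A gene had to have a name, a mean level of at least 1 FPKM (fragments per kilobase of transcript scaled to the number of mapped fragments) over the 3 untreated cultures, a level above 0 in all 6 libraries, and a log2 ratio of quisinostat over DMSO above 1 in each line. Names that begin with ZNF, SLC, HOX, HIST, KRT or LINC were left out. Of 10515 rows in the table, 8314 met the conditions on name and level, and 116 rows at 115 loci of these met the condition on the ratios (1.4%). A log2 ratio over 1 was found in RT4 cells for 14.8% of the 8314 rows, in RT112 cells for 10.8% and in SW780 cells for 7.53%. Since the ratios chose the genes, every ratio below is a description and none was tested.

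The cells were RT4 and RT112, each with an FGFR3-TACC3 fusion, and SW780, with an FGFR3-BAIAP2L1 fusion (spelled FGFR3-BAIBP2L1 in the labels). RT4 cells received 50 nM quisinostat, RT112 cells 10 nM and SW780 cells 25 nM, each beside a DMSO vehicle culture, and all were collected on day 2. RT4 was kept in McCoy's 5A medium, RT112 in DMEM with added L-glutamine and non-essential amino acids, and SW780 in DMEM. Dose, medium and line therefore changed together, and differences between lines cannot be told apart from differences between doses. There was 1 library for each line and treatment, so no value has a replicate error, and the read depth behind the values is unknown. The study sequenced this RNA to ask how quisinostat and an FGFR inhibitor act together on these cells.

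Histone deacetylases remove acetyl groups from the lysines of histones and of other proteins. Their inhibitors keep histones acetylated, and in many cell types genes that are silent or weakly used in that tissue, among them neuronal and muscle genes, gain RNA while others lose it. Which genes respond is known to vary from one cell type to another. In RNA from a whole culture, more RNA per cell and more cells with that RNA cannot be told apart.

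Some facts of the whole table bear on these genes. The quisinostat and the DMSO library correlated with a Spearman coefficient of 0.833 for RT4, 0.922 in RT112 and 0.920 in SW780 over the rows with a mean DMSO level of at least 1 FPKM and no value at 0. The log2 ratio was correlated across rows with the GC content of the transcript, with coefficients of -0.51 (RT4), 0.45 (RT112) and -0.23 (SW780) over 8189 rows with a GC value. Each coefficient compares 2 libraries that all rows share, and rows are not replicates. Bladder epithelial markers were present in the untreated cultures, with GATA3 between 15.7 and 41.8 FPKM and UPK2 between 5.55 and 51.6 FPKM, while UPK3A was listed at 0 in both RT112 libraries.

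Among the 8314 rows, 6221 had a log2 ratio over 1 in no line, 1547 in 1 line, 430 in 2 lines and 116 in all 3. A log2 ratio below -1 in all 3 lines was found for 15 rows. All 3 ratios were above 0 in 20.7% of the rows and below 0 in 17.5%. These shares, and the shares of ratios over 1 given in the opening, are the background of the lists. The pair of lines that most often missed the third was RT4 with SW780, with 234 rows over 1 in these and not in RT112. RT4 with RT112 gave 120 such rows and RT112 with SW780 gave 76. In the line that was missed, the ratio lay below 0 for 76 of the 234, 25 of the 120 and 27 of the 76 rows. A further 9 rows with the same ratios were left out for their name prefix and 5 because they had no name.

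In the 116 genes, log2 ratios had a median of 2.15 among RT4 cells (range 1.01 to 9.28), 1.65 among RT112 cells (1.00 to 7.72) and 1.63 among SW780 cells (1.01 to 4.55). Over all 8314 rows the medians were 0.03, 0.03 and 0.01. The ratio was over 2 for 65 genes in RT4, 45 in RT112 and 34 in SW780, and over 3 for 29, 16 and 6. RT4 held the largest of the 3 ratios for 69 genes, RT112 for 31 and SW780 for 16. The smallest ratio was in SW780 for 53 genes, in RT112 for 47 and in RT4 for 16. The RT4 ratio was larger than the SW780 ratio in 89 of the 116 genes. Over the 8314 rows the largest ratio was in RT4 for 41.0%, in RT112 for 36.7% and in SW780 for 22.3%, against 59.5%, 26.7% and 13.8% of the 116 genes.

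The weakest of a gene's 3 ratios had a median of 1.29. It was over 1.5 for 37 genes, over 2 for 12 and over 3 for 1 gene. The 5 genes just inside the limit were PAK1 (weakest ratio 1.013), DUBR (1.007), PRRG4 (1.006), TSPAN33 (1.004) and KLF13 (1.001). The 5 just outside it were PBXIP1 (0.9997), IFIH1 (0.997), CADM4 (0.995), WIPI1 (0.992) and FLRT3 (0.991), and the weakest ratios of these 10 genes differed by at most 0.022 on the log2 scale.

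The largest common response was that of LGALS1, which codes for galectin-1, a secreted lectin that binds beta-galactosides. LGALS1 stood at 0.344 FPKM in untreated and 57.0 FPKM in treated RT4 cells, at 4.25 and 67.0 FPKM in RT112 and at 8.28 and 114 FPKM in SW780. The 3 quisinostat values spanned 2.01-fold and the 3 DMSO values 24.0-fold, and every quisinostat value lay above every DMSO value. The fold was 166 (RT4), 15.8 (RT112) and 13.8 (SW780), and the weakest ratio of LGALS1 (3.79 on the log2 scale) was the highest weakest ratio among the 8314 rows.

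TNNT1, the slow skeletal muscle troponin T, had the second largest weakest ratio. The TNNT1 level was 0.229, 0.403 and 3.45 FPKM in untreated RT4, RT112 and SW780 cells and 31.4, 16.1 and 26.8 FPKM in treated cells. The log2 ratios of TNNT1 were 7.10, 5.32 and 2.96, given here and throughout in the order RT4, RT112 and SW780, and the order of the lines by level before treatment was the reverse of their order by ratio. LBH, a transcription cofactor first described in limb bud and heart, had log2 ratios of 3.74, 2.81 and 2.86. In RT4 cells LBH went from 0.568 to 7.59 FPKM, in RT112 from 4.63 to 32.6 FPKM and in SW780 from 1.89 to 13.7 FPKM. Here RT112 was the highest line with either treatment.

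**Figure D1:**
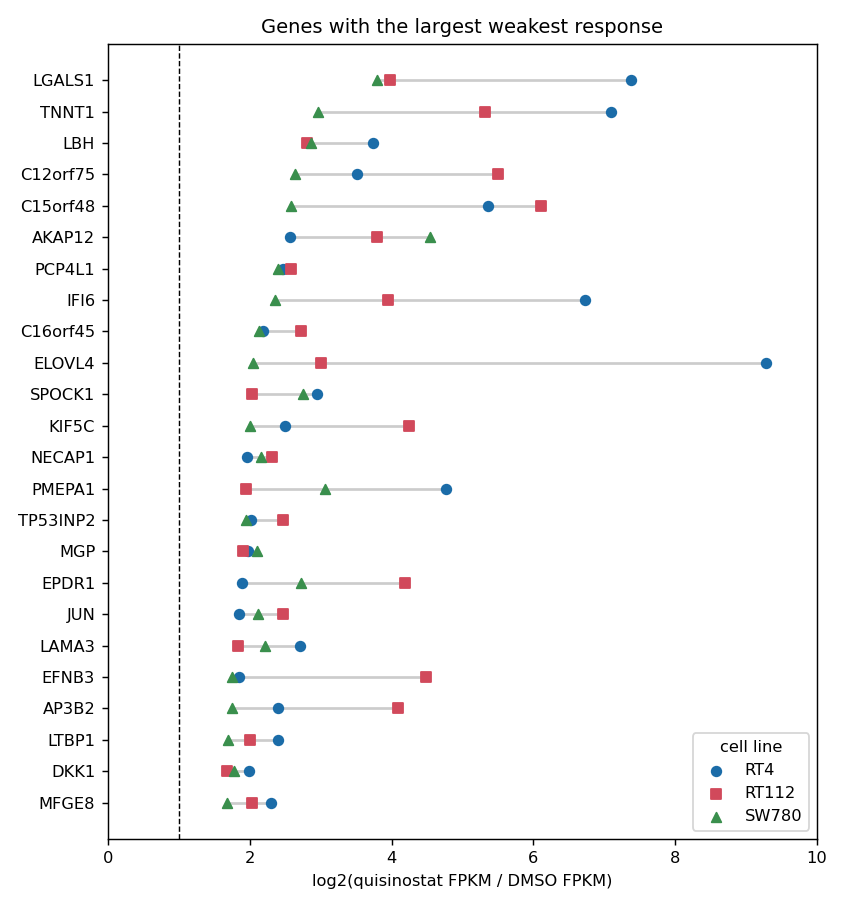
Log2 ratio of quisinostat over DMSO FPKM (x axis) in RT4 (circles), RT112 (squares) and SW780 (triangles) for the 24 genes with the largest weakest ratio, 1 point per pair of libraries, with a grey line from the lowest to the highest ratio and a dashed line at the limit of 1. The 3 points of PCP4L1 and of MGP lie close together, whereas ELOVL4 runs from 2.05 to 9.28.

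C12orf75 and C15orf48, both named by open reading frame, came next. Untreated cells held 2.52 (RT4), 0.0505 (RT112) and 5.05 FPKM (SW780) of C12orf75, and treated cells 28.9, 2.29 and 31.5 FPKM. With DMSO and then quisinostat, C15orf48 was at 1.20 and 49.3 FPKM in RT4, 0.0419 and 2.89 in RT112 and 3.49 and 20.9 in SW780. In both genes RT112 was near 0 before treatment and was the lowest line afterwards, and RT112 also had the largest ratio, 5.51 and 6.11 on the log2 scale. A DMSO value this low makes a ratio uncertain. A DMSO value under 0.1 FPKM in some line was found for 12 of the 116 genes, against 112 of the 8314 rows. AKAP12, a scaffold that anchors protein kinase A, had a DMSO value of at least 0.244 FPKM in each line. AKAP12 stood at 1.78 FPKM in untreated and 10.6 FPKM in treated RT4 cells, at 0.244 and 3.39 FPKM in RT112 and at 1.39 and 32.4 FPKM in SW780. Its largest ratio was in SW780 (4.55), the largest SW780 ratio of any of the 116 genes.

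IFI6, an interferon-induced mitochondrial protein, differed 17.1-fold between the untreated lines. The IFI6 level was 0.297, 1.42 and 5.08 FPKM in untreated RT4, RT112 and SW780 cells and 31.4, 22.0 and 26.1 FPKM in treated cells. After quisinostat the 3 lines lay between 22.0 and 31.4 FPKM, and the log2 ratios were 6.72, 3.95 and 2.36. ELOVL4, an elongase of very long chain fatty acids, had the widest spread of ratios among the 116 genes. In RT4 cells ELOVL4 went from 0.0132 to 8.18 FPKM, in RT112 from 0.285 to 2.29 FPKM and in SW780 from 2.98 to 12.3 FPKM. Its RT4 ratio of 9.28 rests on a DMSO value of 0.0132 FPKM. PMEPA1, a membrane protein known as a TGF-beta target and inhibitor, was the reverse case by level. Untreated cells held 0.00936 (RT4), 19.8 (RT112) and 18.4 FPKM (SW780) of PMEPA1, and treated cells 0.255, 76.5 and 154 FPKM. RT4 stayed under 1 FPKM with quisinostat, while SW780 reached the highest SW780 value of the 116 genes.

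C16orf45 had log2 ratios of 2.18, 2.72 and 2.13, SPOCK1, a secreted proteoglycan of the testican family, 2.95, 2.04 and 2.75, and EPDR1, an ependymin-related glycoprotein, 1.89, 4.20 and 2.72. MFGE8, a secreted protein that bridges phosphatidylserine on dying cells to integrins, had 2.30, 2.04 and 1.67. In MFGE8 and C16orf45 the 3 quisinostat values (lowest 7.69 and 7.60 FPKM) all lay above the 3 DMSO values (highest 3.69 and 6.43 FPKM). In EPDR1 they overlapped, since the untreated RT4 culture, at 6.87 FPKM, was above treated RT112 and SW780 cells at 4.23 and 2.03 FPKM.

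The promoters of the highest-ranked genes are shown because these genes moved together in all 3 lines. The windows are the 250 bases before the RefSeq transcription start on GRCh38.p14, 5′ to 3′ on the gene's strand, for the 5 genes with the largest weakest ratio among those with an entry. LGALS1 had no entry and is named only. The windows lie at chr19:55149207-55149456 on the minus strand for TNNT1, and on the plus strand at chr2:30231284-30231533 for LBH, chr12:105330441-105330690 for C12orf75, chr15:45430360-45430609 for C15orf48 and chr6:151239717-151239966 for AKAP12. Capitals mark matches to 6 motifs on either strand: the GC box GGGCGG, the CCAAT box CCAAT, the TATA box TATAAA, the E box CACGTG, the AP-1 site TGANTCA and the cyclic AMP response element TGACGTCA.
TNNT1: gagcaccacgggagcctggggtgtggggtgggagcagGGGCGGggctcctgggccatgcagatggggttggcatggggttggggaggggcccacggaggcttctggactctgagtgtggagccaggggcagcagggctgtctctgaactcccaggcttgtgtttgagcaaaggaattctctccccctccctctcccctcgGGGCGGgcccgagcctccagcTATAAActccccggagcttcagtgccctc
LBH: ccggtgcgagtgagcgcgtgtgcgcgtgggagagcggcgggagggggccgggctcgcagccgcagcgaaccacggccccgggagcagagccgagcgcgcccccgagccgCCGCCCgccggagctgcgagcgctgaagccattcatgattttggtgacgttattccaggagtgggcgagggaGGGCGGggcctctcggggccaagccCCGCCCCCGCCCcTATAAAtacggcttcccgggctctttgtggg
C12orf75: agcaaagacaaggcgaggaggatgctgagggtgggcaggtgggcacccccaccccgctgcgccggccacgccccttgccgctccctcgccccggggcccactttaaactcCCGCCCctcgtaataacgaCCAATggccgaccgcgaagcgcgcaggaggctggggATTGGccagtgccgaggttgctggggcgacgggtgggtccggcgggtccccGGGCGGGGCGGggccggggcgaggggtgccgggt
C15orf48: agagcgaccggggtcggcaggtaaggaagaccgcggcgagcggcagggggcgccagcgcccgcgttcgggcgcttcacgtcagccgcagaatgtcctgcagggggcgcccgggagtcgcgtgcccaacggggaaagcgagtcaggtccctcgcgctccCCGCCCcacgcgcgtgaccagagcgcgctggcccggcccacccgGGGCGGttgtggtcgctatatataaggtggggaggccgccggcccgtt
AKAP12: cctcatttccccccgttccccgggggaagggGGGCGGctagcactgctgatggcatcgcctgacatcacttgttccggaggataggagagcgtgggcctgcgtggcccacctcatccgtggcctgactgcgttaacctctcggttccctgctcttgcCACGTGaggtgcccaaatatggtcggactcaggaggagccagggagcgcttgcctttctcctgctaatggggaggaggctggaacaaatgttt

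All 5 windows held a GC box, TNNT1 and LBH also a TATA box, C12orf75 a CCAAT box and AKAP12 an E box. Of the 116 genes, 88 had an entry, as had 6603 of the named rows. A GC box was found in 69.3% of the 88 windows and 69.5% of the 6603, a CCAAT box in 28.4% and 36.3%, a TATA box in 7.95% and 5.06%, and an E box in 6.82% and 9.34%. The AP-1 motif was in 4 of the 88 (4.55%, against 3.60%) and the cyclic AMP response element in 7 (7.95%, against 3.23%). The 7 genes were TP53INP2, LTBP1, GABARAPL1, FN1, FSTL4, AREG and STK38L. The median GC content of the windows was 65.4% for the 88 genes and 65.2% for the 6603, and 13 of the 88 windows (14.8%) had under 50% GC against 8.19% of the 6603. A match is a string of letters and does not show that a factor binds there.

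Neuronal genes made up the largest share of any list among the 34 lists of genes compared. Of 19 genes for neuronal adhesion, axon and growth cone proteins that met the conditions on name and level, 6 were among the 116 (31.6%, against 1.4% of all rows). All 3 ratios were above 0 in 15 of the 19 (against 20.7% of all rows) and below 0 in none (against 17.5%), and the list had a median of 1.14 (RT4), 1.15 (RT112) and 0.93 (SW780) on the log2 scale. Ratios over 1 were found for 11 genes in RT4, 11 in RT112 and 9 in SW780. This list, like the others, was written with part of these values in view, so its shares are not independent of them.

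PCP4L1, a small protein of the Purkinje cell protein family, responded almost evenly, with log2 ratios of 2.47, 2.58 and 2.40. With DMSO and then quisinostat, PCP4L1 was at 9.73 and 54.1 FPKM in RT4, 0.478 and 2.87 in RT112 and 0.0869 and 0.458 in SW780. Its untreated level nonetheless spanned 112-fold between RT4 and SW780, and the order of the lines was the same after treatment. KIF5C, a heavy chain of the kinesin that carries cargo along axons, had log2 ratios of 2.50, 4.25 and 2.00. KIF5C stood at 3.57 FPKM in untreated and 20.2 FPKM in treated RT4 cells, at 0.124 and 2.36 FPKM in RT112 and at 2.86 and 11.5 FPKM in SW780. FEZ1, an adaptor between kinesin and its cargo, was highest in RT4. The FEZ1 level was 9.33, 1.99 and 0.922 FPKM in untreated RT4, RT112 and SW780 cells and 58.3, 5.59 and 9.48 FPKM in treated cells. Its smallest ratio was in RT112 (1.49). NMNAT2, the NAD synthase of axons, had log2 ratios of 2.77, 1.19 and 1.68, the kinesin KIF3C 1.14, 1.31 and 1.86, and the synaptic adhesion protein CLSTN3 1.68, 1.5 and 1.03. CLSTN3 was the gene of this list with the smallest weakest ratio among the 6, and it was at 3.72 to 6.93 FPKM in the untreated lines and at 10.5 to 16.8 FPKM in the treated lines, with no overlap.

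**Figure D2:**
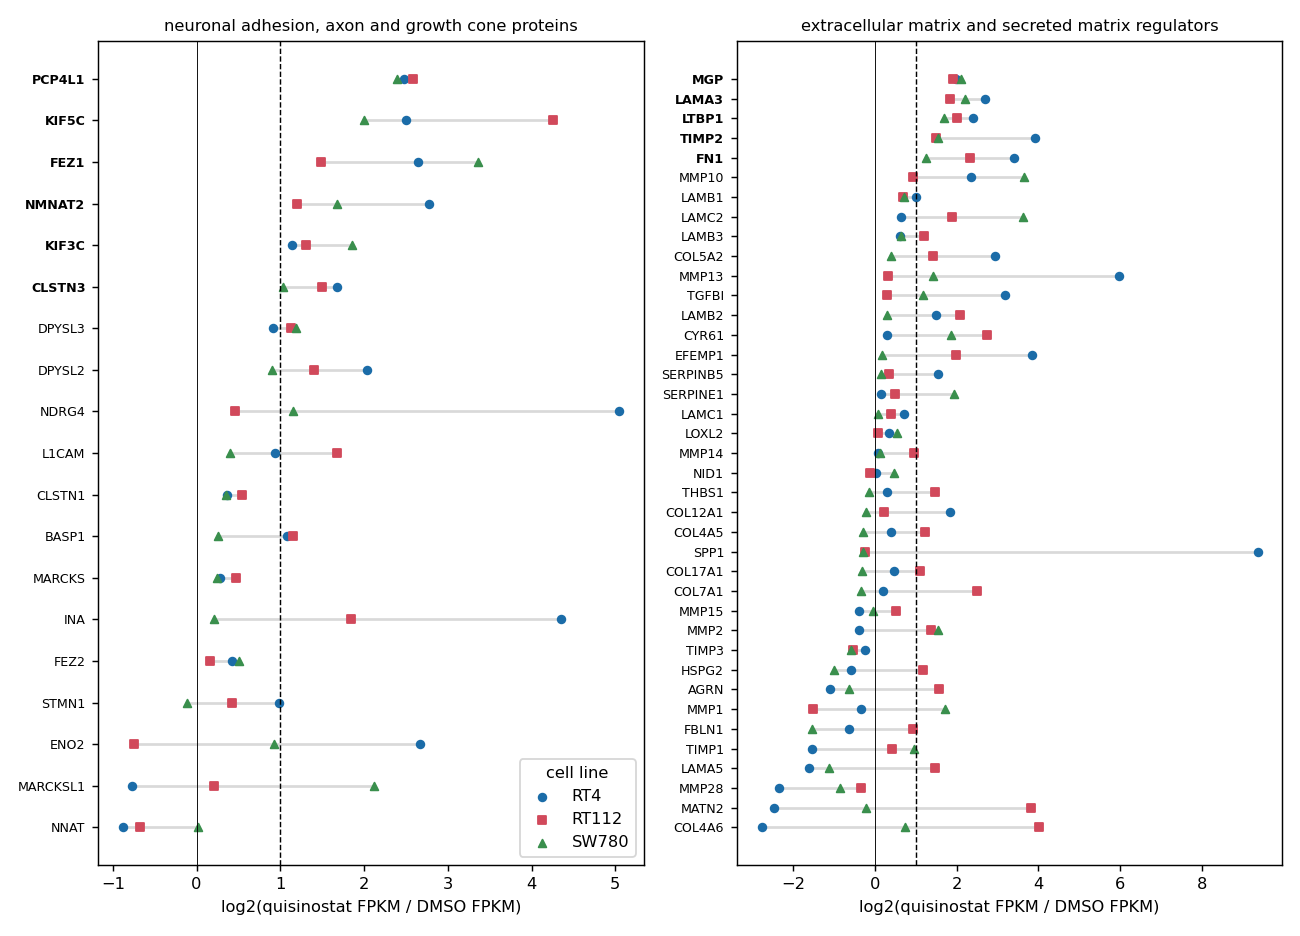
Log2 ratio of quisinostat over DMSO FPKM (x axis) in RT4 (circles), RT112 (squares) and SW780 (triangles) for every gene of the neuronal list (left, 19 genes) and of the extracellular matrix list (right, 39 genes) that met the conditions on name and level, sorted by the weakest ratio, with names of the 116 genes in bold, a solid line at 0 and a dashed line at 1. In the neuronal list 15 of 19 genes have all 3 points above 0, and in the matrix list 20 of 39.

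Of 28 genes for synaptic vesicles and regulated exocytosis, 2 belonged to the set, and 14 had all 3 ratios above 0. SCAMP5, a secretory carrier membrane protein, had log2 ratios of 3.72, 2.71 and 1.63. In RT4 cells SCAMP5 went from 1.57 to 20.7 FPKM, in RT112 from 0.718 to 4.69 FPKM and in SW780 from 1.82 to 5.64 FPKM. SV2A, a glycoprotein of synaptic vesicles, had 2.12, 2.50 and 1.15. Its level was under 1 FPKM in RT112 with either treatment, at 0.0673 and 0.380 FPKM. Guidance molecules gave 2 of 27 (7.41%, against 1.4% of all rows), with list medians of -0.37, 0.78 and 0.50. In RT4, 9 of the 27 had a log2 ratio over 1 and 8 had one below -1. All 3 ratios were above 0 in 8 of the 27 and below 0 in 1. The ligand EFNB3 had log2 ratios of 1.85, 4.48 and 1.75, with an RT112 level of only 0.0101 FPKM before and 0.226 FPKM after treatment. The receptor EPHA4 had 2.97, 1.91 and 1.33. Untreated cells held 0.844 (RT4), 1.76 (RT112) and 1.68 FPKM (SW780) of EPHA4, and treated cells 6.63, 6.59 and 4.24 FPKM. For EPHA4 all treated values lay above all untreated values.

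Genes of the extracellular matrix gave 5 of 39 (12.8%, against 1.4% of all rows). The list had a median of 0.41 (RT4), 1.17 (RT112) and 0.40 (SW780) on the log2 scale. In these lines 15, 21 and 13 of the 39 were over 1 (against 14.8%, 10.8% and 7.53% of all rows). Below -1 were 6, 1 and 2 of the 39. In 20 of the 39 all 3 ratios were above 0 (against 20.7% of all rows), and in 2 all were below 0 (against 17.5%). MGP, an inhibitor of calcification, was among the 5 genes with the narrowest spread of ratios, at 1.98, 1.91 and 2.10. With DMSO and then quisinostat, MGP was at 3.20 and 12.6 FPKM in RT4, 0.643 and 2.41 in RT112 and 7.19 and 30.8 in SW780. LAMA3, the alpha chain of the laminin that anchors epithelia to the basement membrane, had log2 ratios of 2.71, 1.84 and 2.21. LAMA3 stood at 2.41 FPKM in untreated and 15.7 FPKM in treated RT4 cells, at 4.07 and 14.5 FPKM in RT112 and at 11.7 and 54.4 FPKM in SW780. LTBP1, which holds latent TGF-beta in the matrix, had 2.40, 2.01 and 1.70, and the metalloproteinase inhibitor TIMP2 3.92, 1.49 and 1.56.

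FN1, fibronectin, was among the most abundant of the 116 genes. The FN1 level was 2.27, 18.1 and 18.7 FPKM in untreated RT4, RT112 and SW780 cells and 23.9, 91.2 and 45.0 FPKM in treated cells. Its log2 ratios were 3.40, 2.34 and 1.26. RT4 started 8.0-fold below RT112 and, at 23.9 FPKM with quisinostat, lay close above the untreated levels of the other two lines. TIMP2 too was lowest in untreated RT4 cells, at 0.30 FPKM against 8.99 FPKM in RT112 and 5.86 FPKM in SW780. In treated RT4 cells TIMP2 was at 4.55 FPKM, still below both other untreated lines.

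Secreted signals and their regulators formed a further group. DKK1, an antagonist of Wnt coreceptors, was the only member on the list of Wnt ligands, receptors and antagonists (1 of 16). In RT4 cells DKK1 went from 5.61 to 22.2 FPKM, in RT112 from 9.68 to 31.0 FPKM and in SW780 from 14.1 to 48.3 FPKM. Its log2 ratios of 1.99, 1.68 and 1.78 lay within 0.31 of each other, and treated values all exceeded untreated values. Of 23 genes of the TGF-beta, BMP and activin pathway 2 were among the 116: TGFB1, with log2 ratios of 1.06, 1.26 and 1.66, and the follistatin-like FSTL4, with 1.5, 1.34 and 1.16. Untreated cells held 4.40 (RT4), 6.19 (RT112) and 8.16 FPKM (SW780) of TGFB1, and treated cells 9.21, 14.8 and 25.7 FPKM. TGFB1 has a transcript GC content of 63.5%, and after correction for GC content its weakest ratio was 0.46. Of 30 growth factor ligands and receptors 2 belonged to the set. AREG, the EGF receptor ligand amphiregulin, had log2 ratios of 4.61, 1.13 and 2.51. With DMSO and then quisinostat, AREG was at 0.613 and 15 FPKM in RT4, 3.41 and 7.45 in RT112 and 8.67 and 49.5 in SW780. PDGFRL, a receptor-like protein without a kinase, had 2.01, 2.34 and 1.60.

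Immune genes came from 2 lists. Of 30 genes for cytokines, immune receptors and adaptors 3 were members, and 13 had all 3 ratios above 0. IL18, a cytokine that epithelia make as a precursor, was at 4.10, 5.21 and 11 FPKM in untreated RT4, RT112 and SW780 cells and at 26.8, 23.4 and 30.6 FPKM after quisinostat, with no overlap. CLEC7A, the beta-glucan receptor dectin-1 of myeloid cells, had log2 ratios of 5.23, 1.46 and 2.55. CLEC7A stood at 0.536 FPKM in untreated and 20.2 FPKM in treated RT4 cells, at 1.97 and 5.39 FPKM in RT112 and at 0.727 and 4.26 FPKM in SW780. BLNK, an adaptor of B cell receptor signalling, had 1.43, 1.41 and 1.16. Of 36 interferon-stimulated genes IFI6 alone was among the 116 (2.78%, against 1.4% of all rows). In RT4 14 of the 36 were over 1, in RT112 10 and in SW780 4. The shares over all rows were 14.8%, 10.8% and 7.53%. Below -1 were 4, 3 and 8 of the 36, and the list's median was 0.79, 0.34 and -0.46. In 12 of the 36 all 3 ratios were above 0 (against 20.7% of all rows), and in 3 all were below 0 (against 17.5%). IFIH1, a cytosolic sensor of double-stranded RNA, missed the limit with a SW780 ratio of 0.997.

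In the autophagy list, 4 of 43 genes (9.30%) were members, 18 had all 3 ratios above 0 (against 20.7% of all rows) and none had all 3 below 0 (against 17.5%). TP53INP2, which takes part in forming autophagosomes, had log2 ratios of 2.02, 2.47 and 1.95. The TP53INP2 level was 2.09, 0.492 and 1.99 FPKM in untreated RT4, RT112 and SW780 cells and 8.44, 2.74 and 7.70 FPKM in treated cells. GABARAPL1, of the ATG8 family that decorates autophagosomal membranes, had 2.84, 2.08 and 1.36. In RT4 cells GABARAPL1 went from 4.50 to 32.3 FPKM, in RT112 from 2.93 to 12.4 FPKM and in SW780 from 7.31 to 18.8 FPKM. Untreated and treated values did not overlap in either gene, and for TP53INP2 the lowest treated value (RT112) lay 1.3-fold above the highest untreated value (RT4). PINK1, the kinase that marks damaged mitochondria, had 1.09, 2.19 and 1.20, and the sestrin SESN3, a sensor upstream of mTORC1, 1.07, 2.23 and 1.54. SESN3 has 37.1% transcript GC, and its weakest ratio was 0.53 after GC correction. WIPI1, a further gene of this list, was the fourth gene just outside the limit.

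Lysosomal genes differed between the lines. Of 53, 2 were members (3.77%, against 1.4% of all rows). A log2 ratio over 1 was found for 29 in RT4 (against 14.8% of all rows), 8 in RT112 (against 10.8%) and 5 in SW780 (against 7.53%). The list had medians of 1.06, 0.44 and 0.23 in these lines. The members were both serine carboxypeptidases. Untreated cells held 21.7 (RT4), 16.1 (RT112) and 19.0 FPKM (SW780) of CTSA, and treated cells 117, 39.6 and 40.6 FPKM. With DMSO and then quisinostat, PRCP was at 19.6 and 128 FPKM in RT4, 9.35 and 25.6 in RT112 and 12 and 24.3 in SW780. CTSA is the protective protein of lysosomal beta-galactosidase and PRCP cleaves angiotensin and kinin peptides. Their RT4 ratios, 2.43 and 2.71, were the largest of the 3, and after GC correction their weakest ratios were 0.92 and 0.93.

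**Figure D3:**
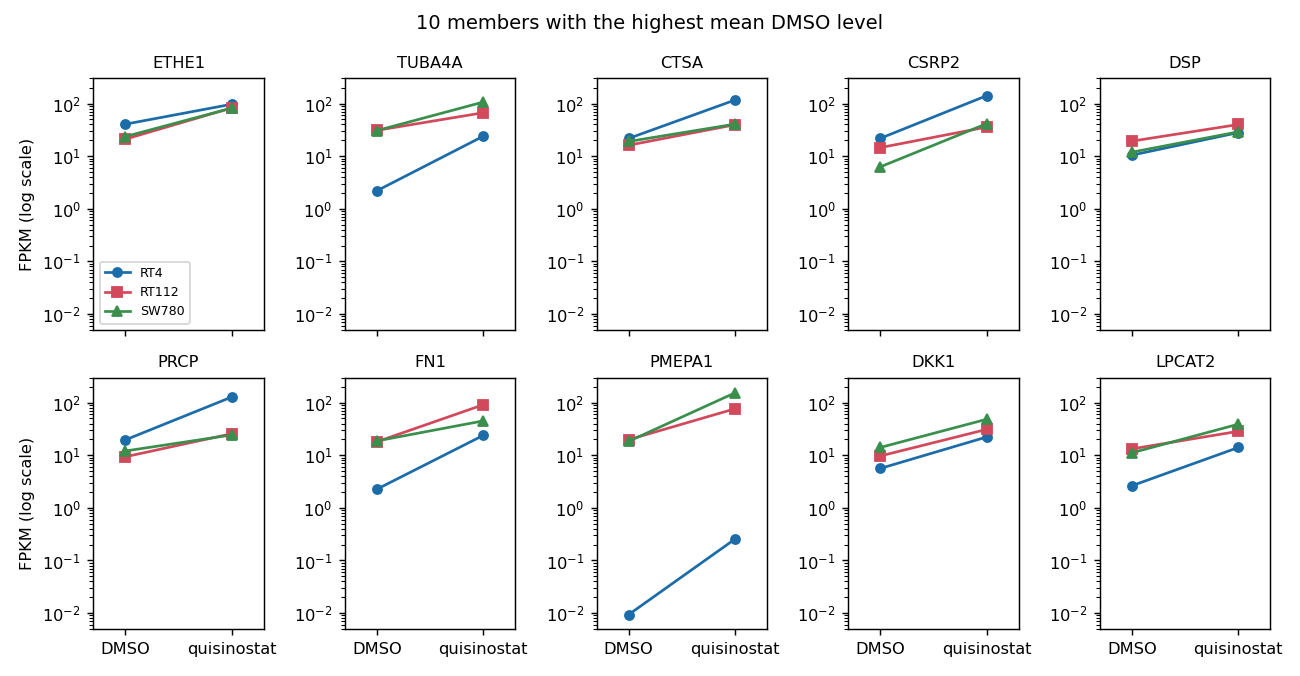
FPKM on a log scale with DMSO and with quisinostat in RT4 (circles), RT112 (squares) and SW780 (triangles) for the 10 members with the highest mean DMSO level, 1 library per point. In ETHE1, CTSA, PRCP and CSRP2, RT4 was the highest line with DMSO as well as with quisinostat, and PMEPA1 in RT4 stayed under 1 FPKM.

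Membrane traffic genes included 3 of 46 from the list of clathrin adaptors, dynamins and endocytosis. NECAP1, an adaptor-associated protein of clathrin-coated vesicles, had even log2 ratios of 1.96, 2.32 and 2.16. NECAP1 stood at 3.08 FPKM in untreated and 12 FPKM in treated RT4 cells, at 1.08 and 5.38 FPKM in RT112 and at 1.28 and 5.72 FPKM in SW780. AP3B2, the neuronal beta subunit of the AP-3 adaptor, had 2.39, 4.09 and 1.74, and it was mainly an RNA of RT4, at 3.57 FPKM before and 18.8 FPKM after treatment, while SW780 stayed at 0.0551 and 0.185 FPKM. CAVIN1, a coat protein of caveolae, had one of the 5 widest spreads. The CAVIN1 level was 0.157, 2.03 and 15.7 FPKM in untreated RT4, RT112 and SW780 cells and 7.99, 14.3 and 43.6 FPKM in treated cells. RAB32, a RAB GTPase of lysosome-related organelles (1 of 37 RAB genes), had log2 ratios of 1.94, 2.11 and 1.27.

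Signalling kinases were also among the 116 genes. STK38L, an NDR kinase, had log2 ratios of 1.97, 1.09 and 1.70, and PAK1, a p21-activated kinase, 1.01, 2.09 and 1.13. In PAK1, untreated RT4 cells (10.1 FPKM) lay above treated RT112 and SW780 cells (2.82 and 6.21 FPKM). GPR153, an orphan receptor, had log2 ratios of 1.13, 1.11 and 1.63, with a transcript GC content of 65.9% and a weakest ratio of 0.14 after GC correction, the lowest corrected value of the 114 genes with a GC value.

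Among transcription factors, JUN was the only one of 13 AP-1 and immediate early factors in the set. In RT4 cells JUN went from 1.70 to 6.13 FPKM, in RT112 from 2.77 to 15.3 FPKM and in SW780 from 4.01 to 17.3 FPKM. Its log2 ratios were 1.85, 2.46 and 2.11, while the list's medians were -0.91, 0.72 and 0.08 and 1, 4 and 3 of the 13 genes were over 1. POU2F3, which specifies tuft cells and takes part in keratinocyte differentiation, and KLF13, a Krüppel-like factor, were the 2 of 26 KLF, SOX, FOX, GATA and POU factors. POU2F3 had log2 ratios of 3.19, 2.16 and 1.61, and its level in RT4 was 0.0871 FPKM before and 0.792 FPKM after treatment. KLF13 had 1.39, 1.00 and 2.33. None of 37 basic helix-loop-helix and nuclear receptor factors was a member.

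The most abundant member before treatment was ETHE1, a mitochondrial enzyme of sulfide oxidation. Untreated cells held 40.5 (RT4), 21.0 (RT112) and 23.6 FPKM (SW780) of ETHE1, and treated cells 97.0, 82.5 and 82.0 FPKM. Treated values lay between 82.0 and 97.0 FPKM, all above the untreated 21.0 to 40.5 FPKM, and the ratios were 1.26, 1.97 and 1.80. TUBA4A, an alpha-tubulin (1 of 11 tubulins), had log2 ratios of 3.44, 1.11 and 1.80. With DMSO and then quisinostat, TUBA4A was at 2.20 and 24.0 FPKM in RT4, 31.0 and 66.9 in RT112 and 30.7 and 107 in SW780. Its weakest ratio fell to 0.73 with GC correction. CSRP2, a LIM domain protein of muscle, had 2.69, 1.3 and 2.73, and treated RT4 cells held 141 FPKM, the highest value among the 116 genes in that line. DSP, desmoplakin of the desmosome, had 1.42, 1.05 and 1.28. DSP stood at 10.5 FPKM in untreated and 28.1 FPKM in treated RT4 cells, at 19.3 and 40.0 FPKM in RT112 and at 11.9 and 29 FPKM in SW780. LPCAT2, an acyltransferase that makes platelet-activating factor, had 2.41, 1.11 and 1.81.

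The other lists held 1 or 2 members each, or none. The ubiquitin ligase list gave KLHL5 (2.94, 1.57 and 1.82) and RNF144A (1.29, 1.75 and 1.51) of 83 genes. Ion channels and chloride regulators gave CLCA2 (2.03, 1.38 and 1.69) and the calcium channel subunit CACNG4 (1.16, 3.45 and 2.26) of 35, and CLCA2 was also the only one of 27 urothelial differentiation genes, of which 8 had all 3 ratios below 0 (against 17.5% of all rows). TP53I11 (1.11, 1.90 and 1.84) was the only one of 38 p53 target genes. ETNK2, an ethanolamine kinase (1.96, 2.22 and 1.22), was 1 of 46 lipid genes, and TRNAU1AP, a factor of selenoprotein synthesis (1.56, 1.34 and 1.27), 1 of 62 redox genes. There was no member among 5 HDAC inhibitor response genes, 18 MAP kinase phosphatases and feedback inhibitors, 40 actin regulators, 2 metallothioneins, 11 replacement and linker histones, 32 genes of the BCL2 family, caspases and death receptors, 33 cell cycle inhibitors and cyclins, 26 adhesion molecules and 10 histone deacetylases and sirtuins. Members were 1.4% of all rows, so a count of 0 in lists this small does not show that their genes failed to respond. The 2 metallothioneins and 16 of the 40 actin regulators had all 3 ratios above 0 (against 20.7% of all rows). For the actin regulators, 5 of the 40 had all 3 below 0 (against 17.5%).

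Across the 34 lists, 49 of the 116 genes were on at least 1 list and 67 on none. The lists held 1032 genes that met the conditions, and 4.75% of these were members, against 1.4% of all 8314 rows. The lists had been written with part of these values in view, so this share is not independent of them.

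The genes with the widest spread of ratios were ELOVL4 (SD 3.93 over the 3 lines), CALD1 (3.49), IFI6 (2.21), CAVIN1 (2.15) and TNNT1 (2.08). CALD1, the actin and calmodulin binding caldesmon, had log2 ratios of 2.51, 7.72 and 1.10. The CALD1 level was 4.01, 0.0390 and 5.14 FPKM in untreated RT4, RT112 and SW780 cells and 22.9, 8.21 and 11 FPKM in treated cells. The RT112 ratio of CALD1 was the largest RT112 ratio of the 116 genes and rests on a DMSO value of 0.0390 FPKM. The narrowest spreads were those of AL391422.3 (SD 0.05), BBS4 (0.08), PCP4L1 (0.09), MGP (0.10) and SH3BP4 (0.12). AL391422.3, annotated as a sense-overlapping transcript, had log2 ratios of 1.60, 1.57 and 1.51, BBS4, a subunit of the ciliary BBSome, 1.20, 1.06 and 1.05, and SH3BP4 1.38, 1.16 and 1.36. Over the 116 genes the median SD was 0.61, and over the 8314 rows 0.45.

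The level before treatment was low for most of these genes. The DMSO value is the divisor of the ratio that chose them, so these levels and shares are not independent of the choice. The median DMSO level was 2.01 FPKM in RT4, 1.93 in RT112 and 2.92 in SW780, against 9.29, 9.08 and 9.54 FPKM over all 8314 rows. With quisinostat the medians were 10.3, 5.67 and 9.54 FPKM, against 9.76, 9.94 and 9.92 FPKM. Of rows with a mean DMSO level from 1 to below 2 FPKM, 43 of 480 were members (8.96%). From 2 to below 5 FPKM it was 49 of 1700 (2.88%), from 5 to below 30 FPKM 24 of 4638 (0.52%), and from 30 FPKM upwards none of 1496. In 54 of the 116 genes (46.6%) every line had at least 1 FPKM before treatment, against 90.7% of all rows.

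With quisinostat, 19 genes were at 10 FPKM or more in all 3 lines: LGALS1, TNNT1, IFI6, LAMA3, DKK1, PALLD, IL18, GABARAPL1, CSRP2, TRNAU1AP, FN1, ETHE1, TUBA4A, LPCAT2, CTSA, PINK1, DSP, CLSTN3 and PRCP. Some 12 others stayed under 1 FPKM in some line: PCP4L1, PMEPA1, EFNB3, AP3B2, POU2F3, PDGFRL, PRR34-AS1, CPE, C8orf48, RNF144A, SV2A and SESN3. Both groups were set by their values and include genes that no other rule of choice had named.

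**Figure D4:**
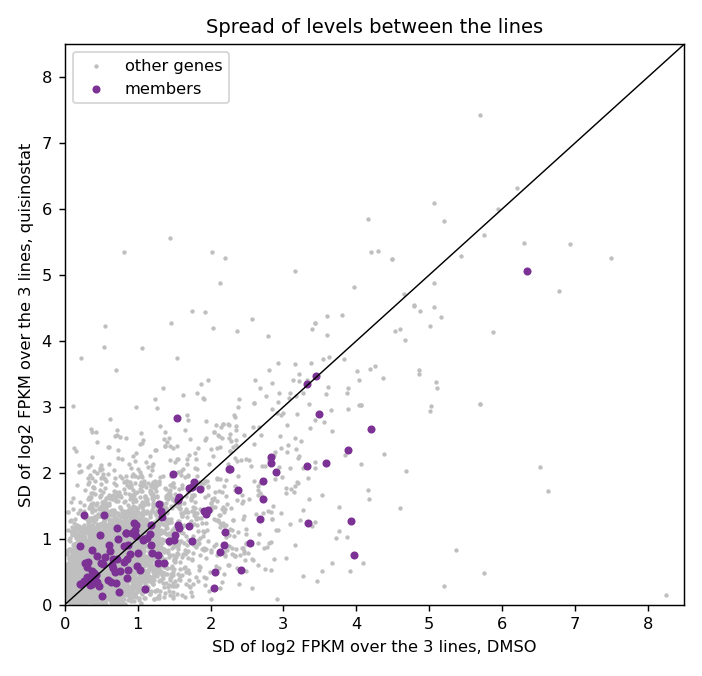
SD of log2 FPKM over the 3 lines with DMSO (x axis) and with quisinostat (y axis), 1 point per gene, with the 116 members in purple, all other rows in grey and a line where both are equal. More members lie below the line (68 of 116, 58.6%, against 46.3% of all rows) than above it.

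The lines differed more in these genes than in the rest of the table. The SD of log2 FPKM over the 3 untreated lines had a median of 1.08 for the 116 genes and 0.47 for all rows. Within the level band from 2 to below 5 FPKM the medians were 1.29 and 0.65, and from 5 to below 30 FPKM 0.89 and 0.43, but from 1 to below 2 FPKM they were 0.90 and 1.03. With quisinostat the SD was smaller than with DMSO in 68 of the 116 genes (58.6%, against 46.3% of all rows), with medians of 0.95 and 0.50. By level band, the members' median SD with DMSO and then quisinostat was 0.897 and 0.902 from 1 to below 2 FPKM. It was 1.29 and 0.98 from 2 to below 5 FPKM, and 0.894 and 0.928 from 5 to below 30 FPKM. The median thus fell in the middle band only. The DMSO values also enter the ratios that chose the genes, so this share is not independent of the choice. The line with the lowest DMSO value was RT4 for 48 genes, RT112 for 47 and SW780 for 21. The same line was still the lowest with quisinostat in 80 of the 116 genes (69.0%, against 56.3% of all rows). The largest ratio fell in the line with the lowest DMSO value in 71 genes (61.2%, against 52.4%), and since the DMSO value is the divisor of the ratio, these share a measurement.

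Of the 116 names, 114 were in GENCODE 29 on GRCh38, and 109 of these were protein-coding. The 5 others were the lincRNAs AC084033.3 and DUBR, the antisense RNA PRR34-AS1, the processed transcript AL390198.1 and AL391422.3. DUBR had log2 ratios of 3.07, 1.57 and 1.01, and PRR34-AS1 was mainly an RNA of SW780, at 4.67 FPKM before and 13.8 FPKM after treatment. In 65 of the 114 genes the annotated span overlapped a gene on the other strand, a protein-coding one in 27. The share over all rows is not given here, so these counts do not set the members apart. The library kit marks strand, but whether the strand was used in the authors' quantification is not given in the sources used here, so reads of overlapping genes may not be separated. Their annotated span in the genome had a median of 55163 bases, against 29477 for the 8189 rows with a GENCODE entry. The median length of the longest coding transcript was 3451 bases against 3095.

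RNASE4 and ANG, 2 secreted ribonucleases, overlap at chr14:20684100-20701215 and share 1 assembled locus and 1 set of values. In RT4 cells RNASE4 went from 0.731 to 15.9 FPKM, in RT112 from 1.93 to 5.67 FPKM and in SW780 from 0.687 to 3.68 FPKM. These values cannot be divided between the 2 names. Next to each other among the rows with values were also C12orf75 and the kinase gene NUAK1, 667.2 kb apart on chromosome 12, and RASSF6 and AREG, 824.5 kb apart on chromosome 4. NUAK1 had log2 ratios of 1.73, 1.48 and 1.75 and RASSF6 1.32, 1.10 and 1.38. The 217 nearest rows on either side of the members that were not members themselves had a median of 0.25 (RT4), 0.05 (RT112) and 0.10 (SW780) on the log2 scale. Over all 8198 rows that were not members, which include these 217, the medians were 0.01, 0.02 and -0.0039. All 3 ratios were above 0 in 29% of the neighbours and 19.6% of the 8198 rows. Chromosome 4 had the largest share of members, 8 of 275 rows (2.91%, against 1.4% of all rows). Chromosome 15 followed with 7 of 274 (2.55%) and chromosome 12 with 11 of 447 (2.46%). No member was placed on chromosomes 13 and 21, with 138 and 90 rows. With members at 1.4% of all rows, a count of 0 on so few rows does not set a chromosome apart. These counts leave out the 2 members whose names are not in GENCODE 29, of which KIAA1161 lies on chromosome 9 in RefSeq.

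**Figure D5:**
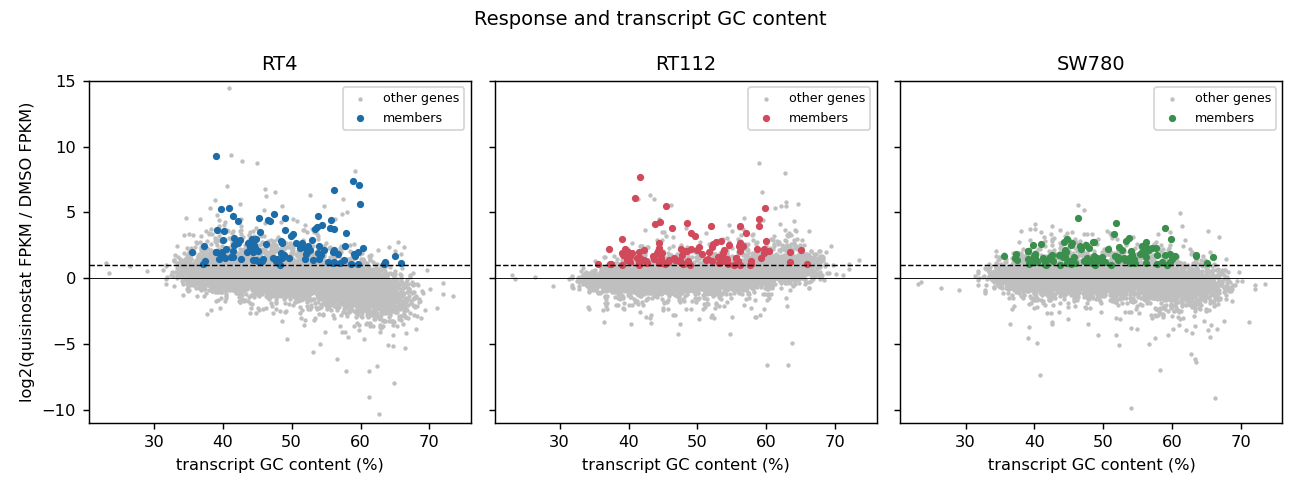
Log2 ratio of quisinostat over DMSO FPKM (y axis) against the GC content of the longest coding transcript in percent (x axis) in each line, 1 point per gene, with members coloured and all other rows in grey, a dashed line at 1 and a solid line at 0. The grey cloud tilts down with GC content in RT4 and up in RT112. Members lie above 1 by the rule that chose them, and their GC content runs from 35.5% to 65.9%.

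GC content moved with the ratio in opposite directions in RT4 and RT112. The 114 members with a value had a median GC content of 48.4%, against 48.3% over the 8189 rows, and quartiles of 43.6% and 54.4% against 42.3% and 55.9%. Among members, which the rule kept only at ratios above 1, the Spearman coefficients of both were -0.10 (RT4), 0.14 (RT112) and 0.13 (SW780). When a curve of ratio on GC content was subtracted in each line, 95 of the 114 stayed above 1 in all lines, and their median ratios were 2.35, 1.71 and 1.60 in RT4, RT112 and SW780. The 19 that did not were GPR153, TGFB1, SESN3, KLF13, TUBA4A, TSPAN33, RASSF6, SMCO4, PAK1, DUBR, BEX2, CTSA, PRCP, BBS4, CD109, WDR41, IFT22, CNEP1R1 and CALD1. Of these CALD1 and CNEP1R1 missed by less than 0.01. The part of GC content in the members' ratios was not tested.

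The 40 genes not described one by one had log2 ratios of 1.20 to 4.86 in RT4 (median 2.08), 1.02 to 4.0 in RT112 (median 1.37) and 1.02 to 4.18 in SW780 (median 1.40). Their mean DMSO level was 1.06 to 5.89 FPKM. They included AC084033.3, AL390198.1, ALG13, BEX2, C11orf74, C14orf132, C8orf48, CALCOCO1, CCDC69, CD109, CLIP4, CNEP1R1, CPA4, CPE, CYP2U1, E2F6, FAM229B, FRAS1, GDAP1, GPC4, GRK3, HCFC1R1, HEG1, IFT22, KIAA0513, KIAA1161, KIF16B, PALLD, PPP1R14C, PRR34-AS1, SAP30L, SH3PXD2B, SMCO4, TMOD2, TSPAN5, TTC9, WDR41, ZDHHC2 and a septin gene whose symbol the table holds as a date.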

How the data were processed

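RNA of 6 cultures (RT4, RT112 and SW780 cells, DMSO or quisinostat) was measured with 1 library each. Per the labels and the methods of the study, the authors made stranded libraries from polyadenylated RNA, used HISAT2 for alignment and StringTie for assembly, and read gene values out of Ballgown. The submitters' processing notes list GRCh38, CASAVA 1.8.2, Trimmomatic 0.36, HISAT2 2.2.1, SAMtools 1.15.1 and StringTie 2.2.1. The annotation release is not given in the sources used here. The authors deposited FPKM, which already divides by transcript length and by mapped fragments, so depth cannot be recovered and no interval from counts was computed. The cell line of 1 library is misspelt in 1 label and was taken from its title. A date stands in place of a gene name in 14 rows.

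Plain log2 ratios were computed with pandas 2.3.3 in Python 3.11.15, without a pseudocount, for rows with a mean DMSO FPKM of at least 1 and no value at 0. With 1 library per group, and with the ratios having chosen the genes, no test was run. The members and lists were chosen with earlier results of these data known. GC content and position came from GENCODE 29 (longest protein-coding transcript, or the longest transcript). The GC correction subtracted a lowess curve of span 0.3 (statsmodels 0.14.6) in each line, and the steps were tested on simulated data. Promoter windows came from RefSeq (GRCh38.p14), matched by symbol or by an unambiguous older symbol.

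The genes described one by one were the 25 with the largest weakest ratio, the 10 with the highest mean DMSO FPKM, those on a list, the 5 on either side of the limit, the 5 with the widest and the 5 with the narrowest spread of ratios, and those that share a locus or lie next to each other. Some of these are not reported here. Other names were chosen after their values were seen. The alternatives were pseudocounts, other limits and level minimums, centring, rescaling, GC correction, each line left out and loci with a single name.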

Additional observations from a re-analysis of the deposited data

How the results depend on the processing

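Each ratio pairs the quisinostat and the DMSO library of 1 line, and no paired test over the 3 lines was run because the ratios chose the genes. The number of members was 116. It was 57 with a pseudocount of 1 FPKM, 73 with a mean DMSO level of at least 2 FPKM, 24 with at least 5 FPKM, 237 with no minimum and 54 with each DMSO value at least 1 FPKM. A limit of 0.8 gave 186, a limit of 1.5 gave 37 and a limit of 2 gave 12. Requiring only the other two lines gave 192 without RT4, 350 without RT112 and 236 without SW780. The count stayed within 1.5 times with a pseudocount of 0.1 FPKM (107), centring (110), rescaling to a common sum (126, of which 112 among the 116), GC correction (121, of which 95 among the 116) and loci with a single name (114). The median log2 ratio of the members in RT4 was 2.15, and 1.73 with a pseudocount of 1 FPKM, 2.11 centred, 2.21 rescaled and 2.35 GC corrected. In RT112 it was 1.65, and 1.19, 1.62, 1.64 and 1.71 in that order. In SW780 it was 1.63, and 1.28 with the pseudocount, 1.67 rescaled and 1.60 GC corrected, and it did not move beyond 0.01 with centring. No median changed sign. Stricter minimums and limits keep fewer rows by construction, and the cause of the other differences was not tested. Depth is unknown, so values near 0 FPKM carry an error that could not be given.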
